A study of Mus musculus with 8 samples.

Results

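The genes described here are 10 immediate early transcription factor genes: Egr1, Egr2 and Egr3, Nr4a1, Nr4a2 and Nr4a3, Fos, Fosb and Fosl1, and Junb. They were taken by name from the 19938 genes measured, and all 10 had a probe set with 1 gene symbol. RNA came from primary smooth muscle cells of the aorta (C57Bl6 mice, passage 3 to 4) in DMEM medium containing 10% fetal calf serum for 24 h. Of the 8 samples, 4 received 100 nM jasplakinolide, a cell-permeable sponge compound that binds and stabilises actin filaments, and 4 were controls without it. Serum was therefore present in both groups, and 24 h was the only time sampled. Nothing in the labels tells whether replicates were separate animals or cultures, so a p-value here reflects the spread among these 8 samples, possibly a technical one.

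Immediate early genes are switched on within minutes of a stimulus without new protein synthesis, and their short-lived transcripts usually fall again soon after. EGR proteins are zinc-finger factors that bind GC-rich sites, NR4A proteins are orphan nuclear receptors, and FOS proteins pair with JUN proteins to form the AP-1 factor. Many of these genes carry sites for serum response factor (SRF), which works with ERK-activated ETS partners or with actin-regulated myocardin-related cofactors, and sites for CREB, the cyclic AMP and calcium responsive factor. In vascular smooth muscle, Egr1 and AP-1 are known for their induction by serum, stretch and injury.

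The values are log2 expression levels made with RMA, and since probe sets differ in how they bind, no gene's level is set against another's. Differences are jasplakinolide minus control on this log2 scale. The labelled cell type was checked against 12 contractile smooth muscle markers, of which 5 were among the brightest 10% of genes. The same held for 7 of 12 endothelial markers, 0 of 10 macrophage markers and 1 of 7 fibroblast markers. Among the endothelial ones, Cdh5 lay at 13.01 to 13.21 log2 and Pecam1 at 12.20 to 12.50 log2 over the 8 arrays. The markers therefore do not settle that the cultures held smooth muscle cells alone. Which cells gave the signal of the 10 genes was not tested. RMA gives no values of 0, so no marker could be read as absent. Of the markers, 8 contractile ones rose, against 0.436% of all genes. Only 1 other marker was called, the endothelial Robo4, which fell (-0.41 ± 0.06, SE, limma adjusted p = 0.0170), against 0.336% of all genes. That call was lost without jasplakinolide 1, jasplakinolide 2, control 3 or control 4 (adjusted p 0.0580 to 0.0729). Of the 12 endothelial markers, 10 had differences below 0 and 2 above, with a median of -0.11. In 6 of them the groups did not overlap, all lower with jasplakinolide, against 6.91% of all genes. With the replicate number as a block, 8 contractile markers were called higher, and 3 endothelial, 1 macrophage (Cd68) and 1 fibroblast marker (Dcn) lower. Over all genes 1.89% were called in that fit, in either direction. The macrophage markers did not move together: 6 differences were above 0 and 4 below, with a median of 0.02. Lyz2, another of them, was higher without overlap of the groups (0.17 ± 0.05, SE) but was not called. Summed on a linear scale, the contractile markers gave 42327 to 45866 on jasplakinolide arrays and 31349 to 31635 on control arrays, and the endothelial markers 37592 to 41212 with jasplakinolide and 41894 to 43455 in control. The sums were 5108 to 6420 on jasplakinolide arrays and 6499 to 8980 on control arrays for fibroblast markers, and 3315 to 3505 with jasplakinolide and 3163 to 3454 in control for macrophage markers. The fibroblast sum was mostly that of Dcn, which encodes the matrix proteoglycan decorin and lay at 12.09 to 12.47 log2 with jasplakinolide and 12.50 to 13.004 in control (difference -0.54, block adjusted p = 0.0134). The median difference over the 7 fibroblast markers was -0.03. The part of these shifts in the results on single genes was not tested, and in bulk RNA fewer cells of a type cannot be told apart from less RNA per cell. On the first principal component jasplakinolide 4 (19.4) and control 2 (12.1) were at one end, with control 3 (-14.3) and control 1 (-13.4) at the opposite end. Jasplakinolide 4 and control 2 also gave the highest medians of 1027 olfactory receptor genes, 5.05 log2 on jasplakinolide 4 and 5.04 on control 2, while the other arrays lay at 4.91 to 4.97.

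The promoter stretches below come from RefSeq (build GRCm38.p6), whose table held 7 of the 10 genes. Stretches are shown for Nr4a1, Nr4a2 and Fos, which were among the genes that differed most between replicate numbers, as described further on. Each runs 5′ to 3′ over the 250 bases before the transcription start, with the CREB half-site TGACG, on either strand, in capitals.
Nr4a1, chr15:101266596-101266845, plus strand: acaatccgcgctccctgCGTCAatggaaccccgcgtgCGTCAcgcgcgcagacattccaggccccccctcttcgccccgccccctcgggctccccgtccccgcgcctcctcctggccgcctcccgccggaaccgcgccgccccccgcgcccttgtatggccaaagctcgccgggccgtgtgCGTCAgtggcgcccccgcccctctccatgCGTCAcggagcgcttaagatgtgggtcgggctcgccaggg
Nr4a2, chr2:57124004-57124253, minus strand: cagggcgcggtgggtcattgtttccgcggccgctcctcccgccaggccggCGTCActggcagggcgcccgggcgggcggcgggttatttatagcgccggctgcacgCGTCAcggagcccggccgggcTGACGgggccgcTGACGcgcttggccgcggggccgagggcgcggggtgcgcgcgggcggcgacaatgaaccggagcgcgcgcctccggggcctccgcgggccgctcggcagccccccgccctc
Fos, chr12:85473640-85473889, plus strand: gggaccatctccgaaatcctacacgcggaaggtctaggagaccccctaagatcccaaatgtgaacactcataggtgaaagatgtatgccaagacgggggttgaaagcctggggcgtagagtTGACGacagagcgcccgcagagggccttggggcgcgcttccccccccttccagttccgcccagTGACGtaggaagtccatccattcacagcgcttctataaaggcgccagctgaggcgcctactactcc

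The half-site occurred in all 7 genes with a promoter entry, against 19.8% of 27025 genes. These included Junb and Fosb. Whether the half-site has a part in the differences between replicate numbers was not tested. Nr4a1, Nr4a2 and Nr4a3 held 4 matches each, a number reached by 0.163% of all genes. In Nr4a1 they began at positions -233, -213, -69 and -40 from the start, and in Fos at -129 and -66. The full palindrome TGACGTCA, the one motif searched that contains another, was in none of the 7 and in 1.77% of all genes, and the AP-1 site TGANTCA was in none and in 7.82%. The EGR site GCGNGGGCG was found in Nr4a1, Nr4a2 and Fosb and in 5.33% of all genes. The ETS core CCGGAA was found in Nr4a1 and Egr2 and in 13.6% of all genes. All motifs were searched on both strands, and promoters were not matched for base composition. The genes were also short for the most part: 8 of the 10 spanned less of the genome than the median of 17705 bases over 19919 tested genes in RefSeq, from 1840 bases in Junb to 17174 in Nr4a2, while Nr4a1 spanned 20894 and Nr4a3 41370 bases.

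Within these 250 bases, the SRF-binding CArG box was found in 1 of the 7 genes, Egr2, and in 1.62% of all genes. Sites farther from the start were not searched, and Egr1, Egr3 and Fosl1 had no promoter entry. The search therefore does not tell whether the other genes carry SRF sites. RefSeq lists 5 start sites for Egr2, and 4 of their windows held a CArG box, at 2 places in all. These are shown with 10 flanking bases and the box in capitals, because SRF is the factor through which actin is known to act on transcription.
Egr2, chr10:67537484-67537513, plus strand: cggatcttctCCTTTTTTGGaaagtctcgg
Egr2, chr10:67537787-67537816, plus strand: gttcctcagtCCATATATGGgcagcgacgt
A match describes the letters in the window and no more.

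None of the 10 genes passed the test for a difference between jasplakinolide and control samples (limma, adjusted p under 0.05 over all genes), against 0.772% of all genes tested (154 of 19938; 0.436% higher and 0.336% lower). That background ran from 43 genes without control 4 to 150 without control 2. Of the 10 differences, 7 were above 0 and 3 below, with a median of 0.03, beside 0.01 over all genes. The largest was a 1.28-fold higher mean of Egr1. At an unadjusted p under 0.05, 1 of the 10 genes passed (Egr1), against 8.87% of all genes. The groups overlapped in all 10 genes, while they did not in 6.91% of all genes.

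Egr1, whose zinc-finger protein activates growth factor and tissue factor genes in injured vessels, had 10.91, 10.77, 10.79 and 10.58 log2 on jasplakinolide arrays 1 to 4, against 10.63, 10.63, 10.13 and 10.25 on control arrays 1 to 4. Jasplakinolide 4 lay below control 1 and control 2, and the other jasplakinolide arrays lay above all 4 controls. The means were 10.76 ± 0.14 with jasplakinolide and 10.41 ± 0.26 in control (SD, n = 4 each). The difference was 0.35 ± 0.12 (SE, limma adjusted p = 0.354), with a 95% confidence interval of 0.08 to 0.63. It was the 231st largest in absolute size among the 19938 genes. Egr1 was higher in 4 of 4 same-numbered pairs, from 0.14 in pair 2 to 0.66 in pair 3. Egr1 passed under 1 of 18 alternative settings, weighting arrays by their quality (difference 0.47, adjusted p = 0.0423).

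Egr2, known for myelination and for anergy in lymphocytes, had 7.67, 7.76, 7.75 and 7.92 log2 on jasplakinolide arrays, against 7.61, 7.70, 7.64 and 7.73 on control arrays. Its pooled SD within groups was 0.09, larger than that of 39.9% of all genes. The Egr2 difference was 0.11 ± 0.06 (SE, adjusted p = 0.701), higher in 4 of 4 pairs. It was 0.058 without jasplakinolide 4, 0.068 without jasplakinolide 4 and control 2, and 0.049 with array weights. Egr3 had 7.99, 7.998, 7.91 and 8.28 log2 on jasplakinolide arrays, against 7.93, 8.19, 7.74 and 8.04 on control arrays. Its highest values were on jasplakinolide 4 and control 2, the 2 arrays with the highest olfactory receptor signal, and the part of that signal was not tested. The Egr3 difference was 0.07 ± 0.11 (SE, adjusted p = 0.937). Of the 10 genes, 3 moved the same way in all 4 pairs (Egr1, Egr2 and Nr4a2), against 24.6% of all genes.

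Nr4a1, also called Nur77, had 10.41, 10.32, 9.90 and 9.96 log2 on jasplakinolide arrays, against 10.48, 10.29, 9.76 and 10.01 on control arrays. Arrays with the same number lay within 0.14 of each other, while the whole range over arrays was 0.73. The difference was 0.01 ± 0.17 (SE, adjusted p = 0.995), with a confidence interval from 0.777-fold to 1.31-fold. Nr4a2, also called Nurr1 and needed for dopamine neurons, had 8.99, 8.91, 8.79 and 8.49 log2 on jasplakinolide arrays, against 9.34, 9.01, 8.91 and 8.82 on control arrays. Each jasplakinolide array lay below the control array of its number, but the groups overlapped. The Nr4a2 difference was -0.23 ± 0.13 (SE, adjusted p = 0.710), with a confidence interval from 0.697-fold to 1.05-fold. It was -0.12 without jasplakinolide 4 or without control 1, -0.13 without jasplakinolide 4 and control 2, and -0.06 with array weights. Nr4a3, or NOR1, had 6.92, 7.04, 6.73 and 6.90 log2 on jasplakinolide arrays, against 6.93, 7.08, 6.83 and 6.84 on control arrays, a difference of -0.03 ± 0.08 (SE, adjusted p = 0.966). All these values lay below the array medians over all probe sets, 7.30 to 7.39 log2.

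Fos, the prototype FOS protein of AP-1, had 8.57, 8.17, 7.90 and 7.74 log2 on jasplakinolide arrays, against 8.46, 8.40, 7.83 and 7.90 on control arrays. In both groups arrays 1 and 2 lay above arrays 3 and 4, as they also did in Nr4a1, Nr4a2, Nr4a3, Fosb and Fosl1. The means were 8.10 ± 0.36 with jasplakinolide and 8.14 ± 0.33 in control (SD, n = 4 each), a difference of -0.05 ± 0.20 (SE, adjusted p = 0.978). The confidence interval, 0.710-fold to 1.32-fold, was the widest of the 10 genes. Fosb, a FOS protein with a truncated form known from chronic stimulation of neurons, lay at 7.87 to 8.02 log2 with jasplakinolide and 7.78 to 8.02 in control, and its difference was 0.02 ± 0.06 (SE, adjusted p = 0.966). Fosl1, which encodes FRA-1, lay at 10.66 to 10.84 log2 with jasplakinolide and 10.66 to 10.80 in control, with a difference of 0.03 ± 0.06 (SE, adjusted p = 0.951).

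Junb, a JUN protein that pairs with FOS proteins, had 8.91, 8.92, 9.02 and 8.99 log2 on jasplakinolide arrays, against 8.91, 8.87, 8.84 and 8.85 on control arrays. Jasplakinolide 1 lay just below control 1 and the other jasplakinolide arrays above all 4 controls. The difference was 0.09 ± 0.04 (SE, adjusted p = 0.657). Its confidence interval, from 0.991-fold to 1.14-fold, was the narrowest of the 10. The plot of levels by array shows the overlap of the groups in all 10 genes.

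**Figure D1:**
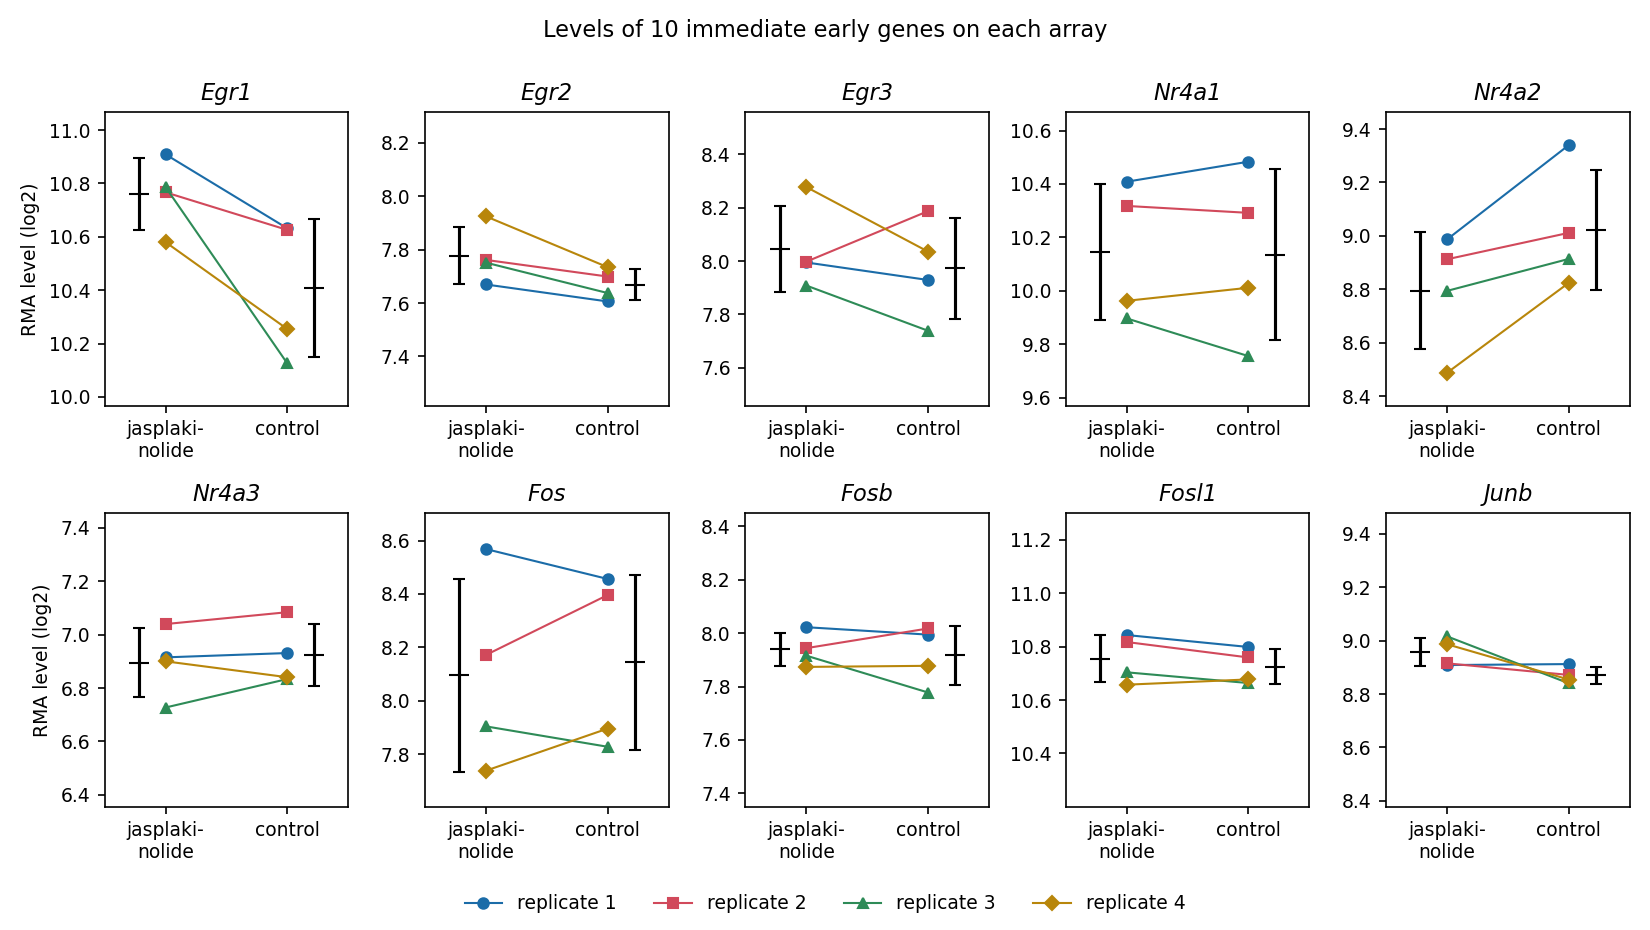
RMA level (log2) of each of the 10 genes on the 4 jasplakinolide arrays (left) and the 4 control arrays (right), with lines joining arrays of the same replicate number and black bars giving mean ± SD. All panels span the same range; Egr1 was higher and Nr4a2 lower with jasplakinolide in 4 of 4 pairs, and in Fos and Nr4a1 arrays 1 and 2 of both groups lay above arrays 3 and 4.

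The spread within groups was wide for several of these genes. The pooled SD within groups was 0.35 log2 for Fos, larger than that of 99.7% of all genes. It was 0.29 for Nr4a1 (larger than 99.2% of genes), 0.22 for Nr4a2 (96.9%), 0.21 for Egr1 (95.3%) and 0.18 for Egr3 (89.5%). Junb, by contrast, had a pooled SD of 0.04, larger than that of 9.17% of genes. The median over the 10 genes was 0.15, beside 0.10 over all genes.

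Much of this spread followed the replicate number. Since arrays of the same number deviated together across all genes (correlations of 0.24 to 0.56 in the 4 pairs), they were treated as pairs. The labels do not state this pairing, which was taken from these same data. Other combinations correlated at -0.62 to 0.52. Jasplakinolide 4 correlated more with control 2 (0.52) than with control 4 (0.44). The replicate number accounted for 97.2% of the within-group sum of squares of Nr4a1, 95.1% of Fosl1, 94.1% of Fos, 92.1% of Nr4a3 and 90.6% of Nr4a2. It accounted for 87.7% in Egr2, 76.1% in Fosb, 71.5% in Egr1, 71.0% in Egr3 and 11.9% in Junb. The fit with the replicate number left 3 residual degrees of freedom and that without it 6. A sizeable share would therefore arise even without a replicate effect. The median over all genes was 71.4%, and 5 of the 10 genes (50%) were above 90%, against 14.4% of all genes. A test of the replicate number beside the treatment, chosen after these values were seen, gave adjusted p = 0.0940 for Nr4a1 and 0.120 for Fos (limma moderated F), and it passed 0 of the 10 genes and 0% of all genes. At an unadjusted p under 0.05 it passed 4 of the 10 (Nr4a1, Fos, Nr4a2 and Nr4a3), against 22.5% of all genes. After median centring of the arrays, Nr4a1 (adjusted p = 0.0323) and Fos (0.0343) passed, among 86 of 19938 genes. Nr4a1, Fos and Nr4a2 did so in a fit with a robust prior that follows intensity, among 1026 genes. None of the 10 passed after another quantile normalization (Nr4a1 adjusted p = 0.0924, Fos 0.120), where 0 of all genes did. After cyclic loess none of the 10 passed either (Nr4a1 adjusted p = 0.0722, Fos 0.100), while 3 of all genes did.

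**Figure D2:**
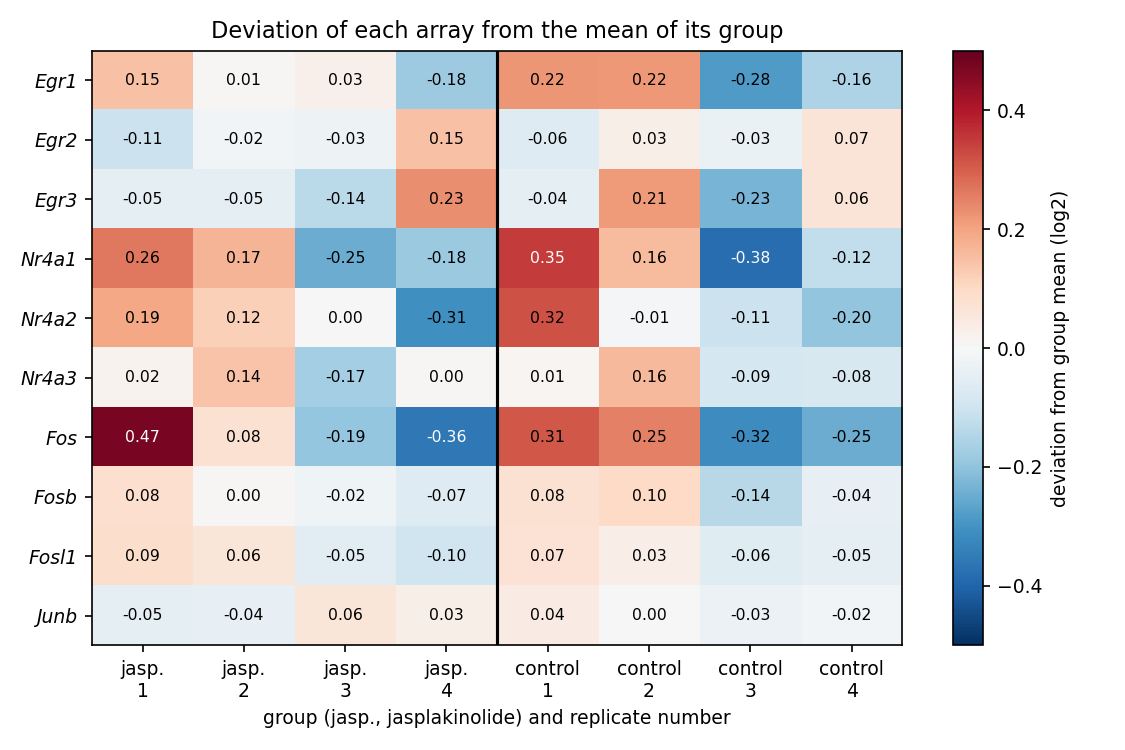
Deviation of each array from the mean of its own group (log2) for the 10 genes, with the 4 jasplakinolide arrays left of the 4 control arrays. Fos ranged from -0.36 on jasplakinolide 4 to 0.47 on jasplakinolide 1, arrays 1 and 2 of both groups were above their group mean for Nr4a1 and Fos, and Junb stayed within 0.06 of its group means.

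Deviations were shared among some of the genes and opposed in others. Over the 8 arrays, after subtraction of each group mean, the 15 pairs among Egr1, Nr4a1, Nr4a2, Fos, Fosb and Fosl1, chosen after their values were seen, correlated at 0.69 to 0.97. Egr2 correlated at -0.85 to -0.39 with these 6 genes and at 0.72 with Egr3. Junb correlated at -0.38 to 0.27 with the other 9. These are descriptions over 8 arrays that share RNA, labelling and normalization within each array. Arrays of the same number, taken as pairs from these same data, may not be independent of each other.

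By the same measure, the gene closest to Egr1 among all genes was Dusp5 (r = 0.996), which encodes a nuclear phosphatase of ERK, followed by the mitochondrial carrier gene Slc25a42 (0.982) and the cationic amino acid transporter gene Slc7a1 (0.979). Fosb was the sixth closest (0.967). Dusp5 had 10.89, 10.83, 10.84 and 10.70 log2 on jasplakinolide arrays, against 10.75, 10.77, 10.48 and 10.55 on control arrays, so that control 3 and control 4 were lowest in it as in Egr1. Its difference was 0.18 ± 0.08 (SE, adjusted p = 0.533). The genes closest to Fos, which had the widest spread, were Nmu (0.994), which encodes the peptide neuromedin U, Tbkbp1 (0.991), a partner of the kinase TBK1, and the keratin gene Krt24 (0.985). The search covered 19938 genes on 8 arrays, and no test goes with it.

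With the replicate number as a block the differences were the same and their errors narrowed for 9 of the 10 genes and hardly moved for Junb. The SE of the Nr4a1 difference was 0.05 with the block and 0.17 without it. That of Fos was 0.07 with the block and 0.20 without, and that of Nr4a2 0.06 with and 0.13 without. The confidence interval with the block was 0.930-fold to 1.09-fold for Nr4a1 and 0.864-fold to 1.08-fold for Fos. For Egr1 it was 1.11-fold to 1.47-fold and for Nr4a2 0.775-fold to 0.942-fold. No gene passed: the lowest adjusted p were 0.115 for Egr1, 0.138 for Nr4a2 and 0.282 for Egr2, while 1.89% of all genes (377) passed in this fit. At an unadjusted p under 0.05, Egr1, Nr4a2 and Egr2 passed (3 of 10), against 15.1% of all genes.

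**Figure D3:**
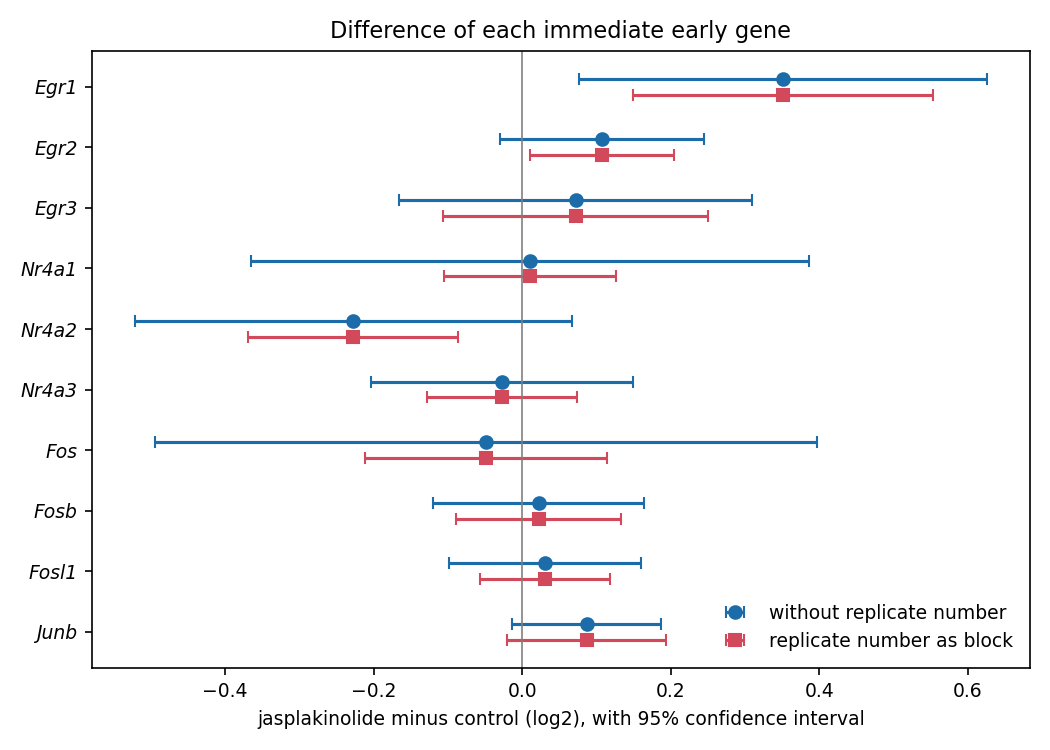
Difference, jasplakinolide minus control (log2), of the 10 genes with 95% confidence intervals, from the fit without the replicate number (circles) and with it as a block (squares). The interval of Egr1 lies above 0 in both fits, and those of Egr2 (above 0) and Nr4a2 (below 0) leave 0 out only with the block; none of the 10 had an adjusted p under 0.05.

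The partners with which these factors work were described next. Of 15 dimer partners, family members and corepressors, 1 rose, 0 fell and 14 did not pass, with a median difference of 0.01. Over all genes 0.436% were called higher and 0.336% lower. At an unadjusted p under 0.05, 1 of the 15 passed, against 8.87% of all genes. The gene that rose was Nab2, a corepressor that binds EGR proteins and is itself an EGR target. It had 10.95, 10.95, 10.93 and 10.93 log2 on jasplakinolide arrays, against 10.73, 10.70, 10.72 and 10.74 on control arrays, with no overlap and a narrow spread in both groups. Its difference was 0.22 ± 0.04 (SE, adjusted p = 0.0368), 1.17-fold. The call was lost when any 1 of the 8 arrays was left out (differences 0.21 to 0.23, adjusted p 0.0644 to 0.142) or jasplakinolide 4 and control 2 together (0.0926), and after median centring (0.165). Nab1, the related corepressor, differed by -0.05 ± 0.05, and Egr4 by 0.05 ± 0.08 (SE). Of the other AP-1 genes, Jun differed by 0.04 ± 0.05, Jund by -0.05 ± 0.04 and Fosl2 by 0.00 ± 0.04 (SE), and none of these passed.

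Among 18 measured regulators upstream of these genes, none passed, 2 did at an unadjusted p under 0.05 (against 8.87% of all genes), and the median difference was -0.00. Srf differed by 0.05 ± 0.05 (SE). Its ETS partners Elk1, Elk3 and Elk4 differed by 0.01 ± 0.04, -0.10 ± 0.04 and 0.04 ± 0.05, and its actin-regulated cofactors Mrtfa and Mrtfb by 0.01 ± 0.04 and -0.06 ± 0.07 (SE). The largest differences were those of Rps6ka5 (-0.21 ± 0.09), a kinase of CREB and histone H3 downstream of ERK and p38, and Crem (-0.15 ± 0.10), a CREB relative. Without jasplakinolide 4 these were -0.13 for Rps6ka5 and -0.095 for Crem, and Crem was -0.061 without control 1 and -0.23 without control 2.

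Of 34 other immediate early genes none passed, with a median of 0.04, and 7 did so at an unadjusted p under 0.05, against 8.87% of all genes. The largest differences were those of Bhlhe40, a circadian repressor (0.29 ± 0.08, SE, adjusted p = 0.217), and Arc, a synaptic regulator (0.23 ± 0.06, adjusted p = 0.146). With the replicate block Bhlhe40 passed (adjusted p = 0.0340), as did 1.89% of all genes, and with array weights its difference was 0.19. In 5 of the 34 the groups did not overlap: Bhlhe40, Arc, Ccn1 and Gadd45g were higher and Socs3 lower, against 6.91% of all genes. The replicate number reached an unadjusted p under 0.05 in 15 of the 34 (44.1%), as it did in 4 of the 10 EGR, NR4A, FOS and JUNB genes and in 22.5% of all genes.

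Of 13 genes of ERK output and feedback none passed, with a median of 0.06, and 3 did so at an unadjusted p under 0.05, against 8.87% of all genes. Lif, a cytokine of the IL-6 family, differed by 0.35 ± 0.15 and Spry4, an inhibitor of ERK signalling, by 0.22 ± 0.09 (SE), the largest of the list. With array weights the Lif difference was 0.55. The replicate number had an unadjusted p under 0.05 in 5 of the 13 (38.5%), against 22.5% of all genes.

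Among 10 known EGR targets 1 rose (Nab2, with the limits given above), against 0.436% of all genes, and 9 did not pass. Of the 10 differences 8 were above 0, with a median of 0.13. At an unadjusted p under 0.05, 6 of the 10 passed, against 8.87% of all genes. With the replicate block 7 did, against 15.1%. This list too was chosen with earlier results of these data known. By adjusted p, 2 passed among the brighter 50% of genes and with the robust prior that follows intensity. With array weights 3 passed, and after median centring 0. In 4 of the 10 the groups did not overlap, against 6.91% of all genes. Besides Nab2 these were the growth factor genes Pdgfb (0.19 ± 0.05, SE, adjusted p = 0.137) and Pdgfa (0.16 ± 0.05, adjusted p = 0.279), both higher, and the adhesion molecule gene Icam1 (-0.25 ± 0.07, adjusted p = 0.228), lower, all named after their values were seen. Of 11 measured AP-1 targets none passed, with a median of -0.01. The chemokine gene Ccl2 differed by -0.33 ± 0.07 (adjusted p = 0.0659) and Hmox1, heme oxygenase 1, by 0.23 ± 0.09 (SE). Ccl2 passed under 6 alternatives (adjusted p 0.00869 to 0.0461): both brightness filters, another quantile normalization, cyclic loess, the robust prior that follows intensity, and array weights. Hmox1 passed with array weights (adjusted p = 0.0393). With the replicate block 1 passed, against 1.89% of all genes. It was the urokinase receptor gene Plaur (difference 0.22, adjusted p = 0.0468), named after its values were seen.

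Cytoskeletal genes known as SRF targets came last: 11 of 22 rose, 0 fell and 11 did not pass, with a median of 0.24 and with groups that did not overlap in 21. Over all genes 0.436% were called higher and 6.91% did not overlap. That list, like the other lists here, was drawn up with earlier results of these data known. It shares Acta2, Myh11, Cnn1, Tagln, Lmod1, Mylk, Cald1 and Actg2 with the contractile markers, so the rises of both are not separate results. Its largest rises were those of Cnn1 (calponin, 1.34 ± 0.07), Acta1 (1.26 ± 0.13), Actg2 (0.93 ± 0.10) and the myosin light chain Myl9 (0.86 ± 0.06, SE). Leaving out 1 array gave 8 or 9 such genes, the brighter 50% of genes gave 17, and the robust prior that follows intensity gave 18. The replicate number had an unadjusted p under 0.05 in 1 of the 22 (4.55%), against 22.5% of all genes. Whether this list and the EGR, NR4A and FOS genes differ in their response was not tested.

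**Figure D4:**
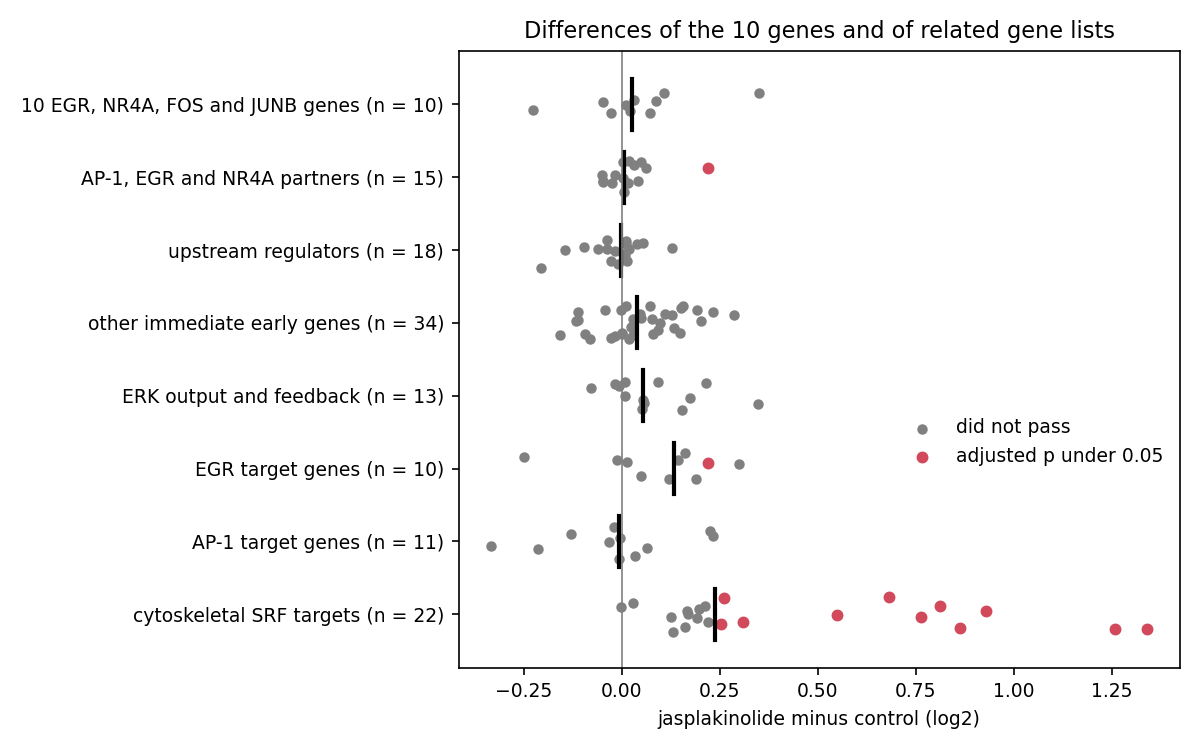
Difference, jasplakinolide minus control (log2), of each measured gene of the 10 EGR, NR4A, FOS and JUNB genes and of 7 related lists; red points had an adjusted p under 0.05 and black lines are list medians. None of the 10 genes is red, Nab2 is the red point in the partners and in the EGR targets, and 11 of 22 cytoskeletal genes are red, all above 0.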

How the data were processed

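The authors deposited log2 expression levels of 35556 probe sets on 8 Affymetrix arrays, which the submitters' processing notes trace to RMA in the Affymetrix program Expression Console. Its version is not given in the sources used here. Precision is limited by the number of arrays. Gene names came from the platform's annotation (probe sets: 21789 with 1 symbol, 1621 with several, 12146 with none). Those with 1 symbol were kept, with the highest mean over the 8 arrays where a gene had several, leaving 19938 genes. Each of the 10 genes had a single probe set.

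Tests used lmFit and eBayes of limma 3.58.1 under R 4.3.3 (two-sided, Benjamini-Hochberg over all genes, adjusted p under 0.05). The fit had 6 residual and 3.43 prior degrees of freedom. Errors of differences are limma's SEs and those of means SDs. Alternatives were the replicate block, brightness filters, other normalizations, an intensity trend with robust prior, array weights, the mean of probe sets, and arrays left out. Same-numbered arrays correlated at 0.24 to 0.56 in their deviations from group means in all 4 pairs, and other combinations at -0.62 to 0.52.

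The genes and lists were chosen with earlier results of these data known. Named in the text are the 10 genes, 13 fixed partners and regulators, and of each list up to 4 genes with the largest differences among those that passed (2 where none did). The 3 genes closest to the gene with the largest difference and to the one with the widest spread are also named. Other names were chosen after their values were seen. Of 128 list genes 122 were measured. Figures were drawn with matplotlib 3.10.9.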

Additional observations from a re-analysis of the deposited data

How the results depend on the processing

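The count of the 10 genes past the threshold was 0 under every alternative except array weights, where it was 1 (Egr1). The weights ran from 0.447 for jasplakinolide 4 to 2.70 for control 4. Egr2 and Nr4a3 were not among the brighter 50% of genes and so were not tested in that setting. The differences of Egr1, Egr2, Nr4a2, Fosl1 and Junb kept their direction in all settings run, with Egr1 between 0.26 and 0.48 and Nr4a2 between -0.29 and -0.06. Of 178 recomputed differences of the 10 genes, 18 changed sign, none of them in the 8 settings that used all arrays with equal weight. Those of Fos were 0.21 with array weights, 0.15 without control 2 and jasplakinolide 4, and 0.015 to 0.071 without jasplakinolide 3, jasplakinolide 4, control 1 or control 2 (range over all 8 such fits -0.21 to 0.071). Those of Nr4a3 were 0.051 with array weights, 0.025 without control 2 and jasplakinolide 4, and -0.075 to 0.029 over the fits without 1 array. Without 1 array, Nr4a1 ranged from -0.12 to 0.13, Egr3 from -0.0060 to 0.14, Fosb from -0.024 to 0.056, Elk1 from -0.015 to 0.026, Mrtfa from -0.00075 to 0.025 and Fosl2 from -0.016 to 0.016. Fosl2 was -0.0036 after median centring and -0.0010 after another quantile normalization. Over all genes the count past the threshold, 154, was 377 with the replicate block, 296 among the brighter 50% of genes, 276 after another quantile normalization, 299 after cyclic loess, 358 with a robust prior following intensity (a trend) and 457 with array weights. It lay between 43 (control 4) and 78 (control 1) when any array other than control 2 was left out, and at 150 without control 2. Of the list genes 12 passed, and 20 did among the brighter 50% of genes, 21 with a trend and 19 with array weights. The replicate number passed 0 genes by adjusted p (4490 unadjusted). It passed 86 after median centring, 0 after another quantile normalization, 3 after cyclic loess and 1026 with a trend, settings added after the values were seen. The cause of these shifts was not tested. The replicate block changed no call among the 10 genes. In none of the 10 genes did an array stand apart from its group by Dixon's criterion.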
